A study of Mus musculus with 16 samples.

Results

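The lysosomal glycosidases, sulfatases and lipid hydrolases, together with the accessory proteins that hand lipids to them, were followed as 32 genes out of 24421 in the count files. The members were chosen by symbol, and all 32 were found in each of the 16 libraries and had enough counts for a test. The libraries were made from epithelial cells released with EDTA from the jejunum and the ileum of wild-type C57BL6/J mice, with no treatment named for any group. There were 4 mice at P6 (postnatal day 6, before weaning) and 4 at P36 (after weaning), with 2 males and 2 females at each age. Each mouse gave both regions, so the 16 libraries form 4 groups of 4: P6 jejunum, P6 ileum, P36 jejunum and P36 ileum. A replicate number marks the same mouse in both regions of an age.

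Most lysosomal hydrolases are soluble enzymes that work at acid pH. Many take large molecules apart from their ends, each removing a given kind of sugar, sulfate or lipid before the next enzyme can act. The loss of a single enzyme of such a chain can lead to a storage disease. The soluble hydrolases are made in the endoplasmic reticulum, and most are tagged in the Golgi and carried to the lysosome by mannose 6-phosphate receptors. Many lysosomal genes carry a short E-box element read by the transcription factor Tfeb. In suckling mammals the enterocytes of the distal small intestine take up intact milk macromolecules by endocytosis and digest them in very large lysosomes, a cell type that is lost at weaning.

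Each library held 12159237 to 25947276 counts in all, and a member held between 14 counts (Dnase2a) and 69783 counts (Fuca2) in a library. Expression is given as CPM, read counts relative to the library total after scaling by TMM (trimmed mean of M-values) factors, or as TPM, which also divides by exon length, where levels of different genes are compared. Of 6 epithelial markers, Epcam lay between 1137 and 2229.5 CPM over all libraries and Cdh1 between 792 and 1064 CPM, and neither passed the test between the ages. Krt8, Krt20 and Vil1 were higher at P36 in both regions, most of all Krt20, a keratin of differentiated enterocytes, at 32.5 to 117 CPM at P6 and 992 to 2959 CPM at P36, and Krt18 was lower in the jejunum. Gata4, a transcription factor of the proximal small intestine, lay at 155 to 164 CPM at P6 and 174 to 193 CPM at P36 in the jejunum, against 3.25 to 34.7 and 0.735 to 31.6 CPM in the ileum. Fabp6, the ileal bile acid binding protein, was found at 3727 to 9114 CPM in the P36 ileum and at no more than 8.21 CPM in the P36 jejunum.

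Replicate 4 of the P6 ileum stood apart from the other 3 libraries of its group. For 17 of the 32 members it was below all 3, for 11 it was above all 3, and for 4 it lay between them. Gaa, the acid alpha-glucosidase that degrades glycogen, was at 48.2 CPM in this library and at 460.1, 539 and 622 CPM in the others. Fuca2, a fucosidase, was at 3422 CPM there and at 2106, 2003 and 1974 CPM in the others. The deviations followed the GC content of the exons, with Spearman's rho of -0.859 across the 32 members and -0.775 across 13358 genes, whereas rho over the members was between -0.353 and 0.606 in the other 15 libraries; these are correlations across genes of 1 library, and genes are not independent replicates. The same library held the highest Gata4 of its group (P6 ileum Gata4 at 8.98, 18.4, 3.25 and 34.7 CPM) and the lowest Fabp6 (at 58.2, 10.9, 74.3 and 6.13 CPM), so it was also the one nearest to the jejunum for these genes. What sets it apart was not tested. Without it, the 28 ileal age calls, the 16 regional calls at P6 and the 6 region-by-age calls of the members kept their direction and their side of the threshold, no member's log2 fold change moved by more than 0.371 (Gaa) in any of these comparisons, and 0, 7 and 7 further members passed. Replicate 2 of the P6 ileum carried the highest levels of smooth muscle and fibroblast genes, 390.2 CPM summed over 8 genes against no more than 37.6 CPM in the other libraries of the group.

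**Figure D1:**
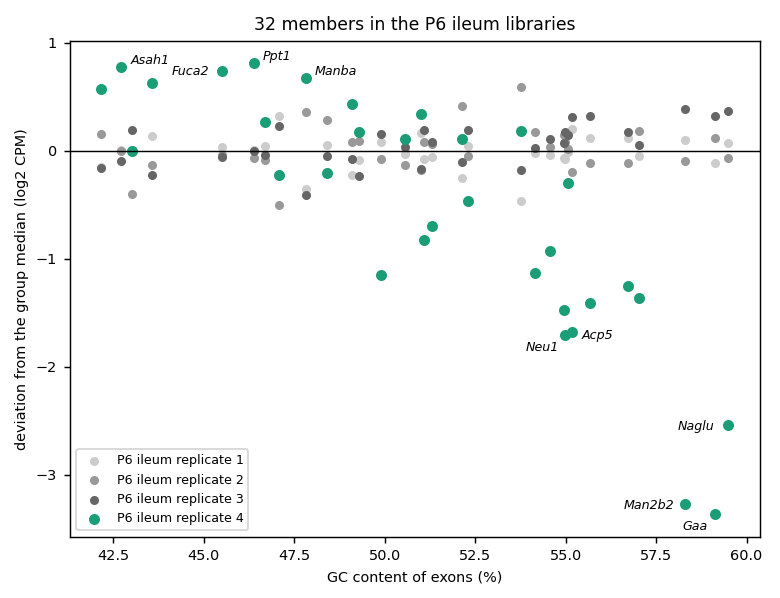
Each point is 1 of the 32 members in 1 of the 4 P6 ileum libraries, plotted by the GC content of its exons in percent (horizontal axis) and its deviation from the median of the 4 libraries in log2 CPM (vertical axis). Replicate 4 (green) falls with rising GC content, with rho of -0.859, and holds Gaa at 48.2 CPM; the other 3 libraries (grey) stay closer to 0.

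Summed over the 32 members, the level was 7822, 8330.4, 8312 and 7484 TPM in the P6 jejunum and 14857, 14379, 16507 and 12466 TPM in the P6 ileum. At P36 the sum was 1321, 1409, 1459.9 and 1437 TPM in the jejunum and 1677, 1754, 1600.4 and 1805 TPM in the ileum. No library of the P6 ileum overlapped the P6 jejunum, and every P6 library exceeded every P36 library. The group means were 7987 ± 409.6 (SD, n = 4), 14552 ± 1663, 1407 ± 60.7 and 1709 ± 89.7 TPM in that order, so the P6 to P36 ratio was 5.68 in the jejunum and 8.51 in the ileum, and the ileum to jejunum ratio 1.82 at P6 and 1.21 at P36. Without replicate 4 the P6 ileum mean was 15247 ± 1117 TPM (SD, n = 3), with ratios of 1.91 to the P6 jejunum and 8.92 to the P36 ileum. On TMM-scaled CPM the ileum to jejunum ratio at P6 was 1.36 and the P6 to P36 ratio in the ileum 6.56. TPM carries no TMM factors. Scaling by library totals alone shifted the log2 fold change of jejunum over ileum by a median over all genes of -0.29 at P6 and -0.14 at P36. For P36 over P6 the median shift was 0.10 in the jejunum and -0.05 in the ileum. In bulk samples, fewer cells that express a gene and less RNA per cell cannot be told apart.

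Per length, the same 3 members had the highest levels in both regions at P6, both fucosidases and the alpha subunit of beta-hexosaminidase. Fuca1, which removes fucose from glycoproteins, had 1216 ± 58.4 TPM in the P6 jejunum (mean ± SD, n = 4) and 1664 ± 322 TPM in the P6 ileum, 15.2% and 11.4% of the summed level. Hexa had 1058 ± 114 and 2365 ± 252 TPM, 13.2% and 16.3%, and Fuca2 918 ± 42.0 and 1619 ± 564 TPM, 11.5% and 11.5%. Fuca1 was thus first and Hexa second in the jejunum, while in the ileum Hexa was first and Fuca2 and Fuca1 differed by less than their spread. At P36 the order was different: Psap, the precursor of the saposins that present sphingolipids to their enzymes, came first with 286 ± 34.0 TPM in the jejunum and 415 ± 60.6 TPM in the ileum, 20.3% and 24.2% of the sum. Gm2a, Idua and Ids were the lowest members of the P6 jejunum, with means of 1.71, 3.65 and 7.31 TPM.

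**Figure D2:**
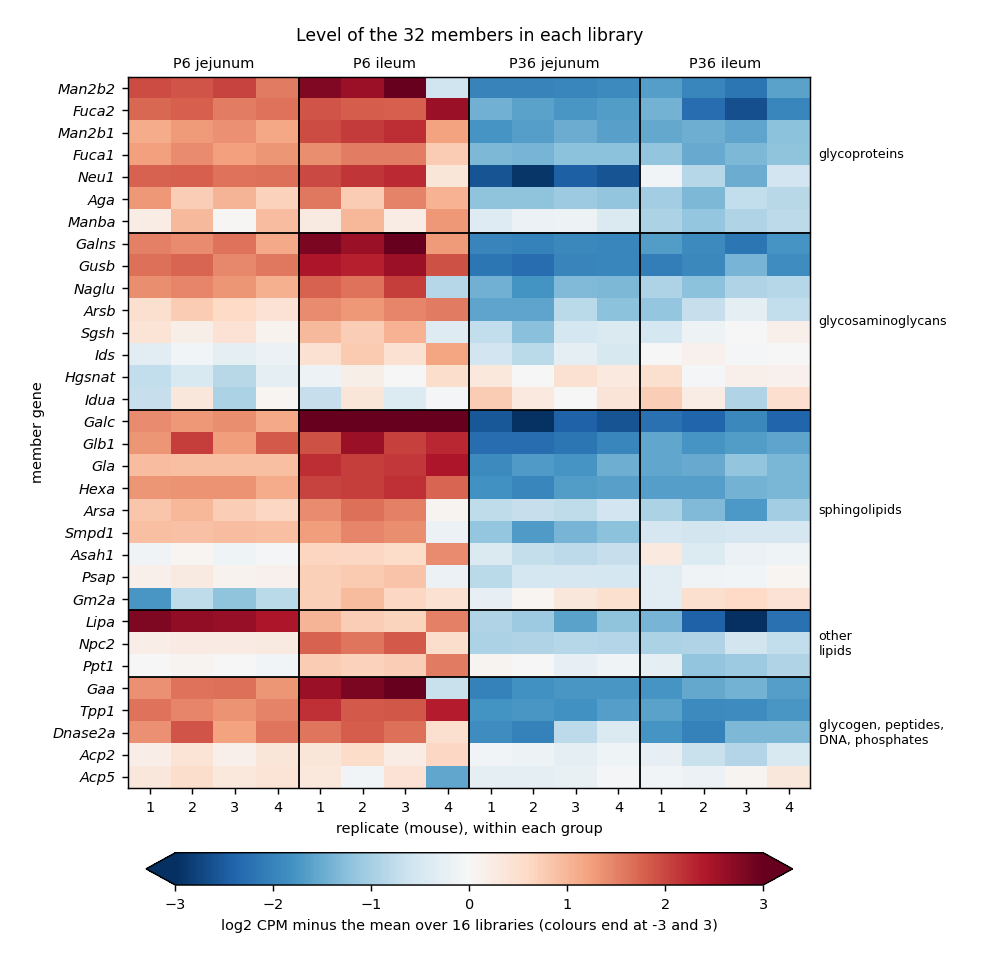
Rows are the 32 members grouped by the molecules they act on, columns the 16 libraries, and the color is log2 CPM minus the mean of the row over all libraries (red higher, blue lower). The P6 columns are red and the P36 columns blue in most rows, and the pale or blue cells of Man2b2, Naglu and Gaa in the fourth P6 ileum column are the library described above.

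The comparison of ages asked which enzymes changed between the suckling and the weaned epithelium. In the jejunum 26 of the 32 members were lower at P36, 2 were higher and 4 did not pass the test (edgeR's quasi-likelihood test, Benjamini-Hochberg adjusted p below 0.05). Of all 13429 genes tested, 26.9% fell and 24.7% rose in the same comparison. In the ileum 28 members were lower, none was higher and 4 did not pass, against 30.1% of all genes that fell and 25.5% that rose. At unadjusted p below 0.05 the count of members higher at P36 in the ileum was also 0, as it was with DESeq2. The median log2 fold change of the members was -2.43 in the jejunum and -2.49 in the ileum, beside -0.01 and -0.03 over all genes tested. With a fold minimum of 2 on the log2 scale, 18 members fell in the jejunum and 20 in the ileum, where 8.59% and 10.0% of all genes did. The regions of an age came from the same mice, and 26 members fell in both regions, 17 of them by more than 2 on the log2 scale in both. The highest mean of the 4 groups was that of the P6 ileum for 27 members, of the P6 jejunum for 3 and of the P36 jejunum for 2. Shares of all genes were not computed for this count or for the falls in both regions. Without replicate 4 of the P6 ileum 28 members were lower in the jejunum and 28 in the ileum, beside 32.4% and 32.02% of all genes.

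**Figure D3:**
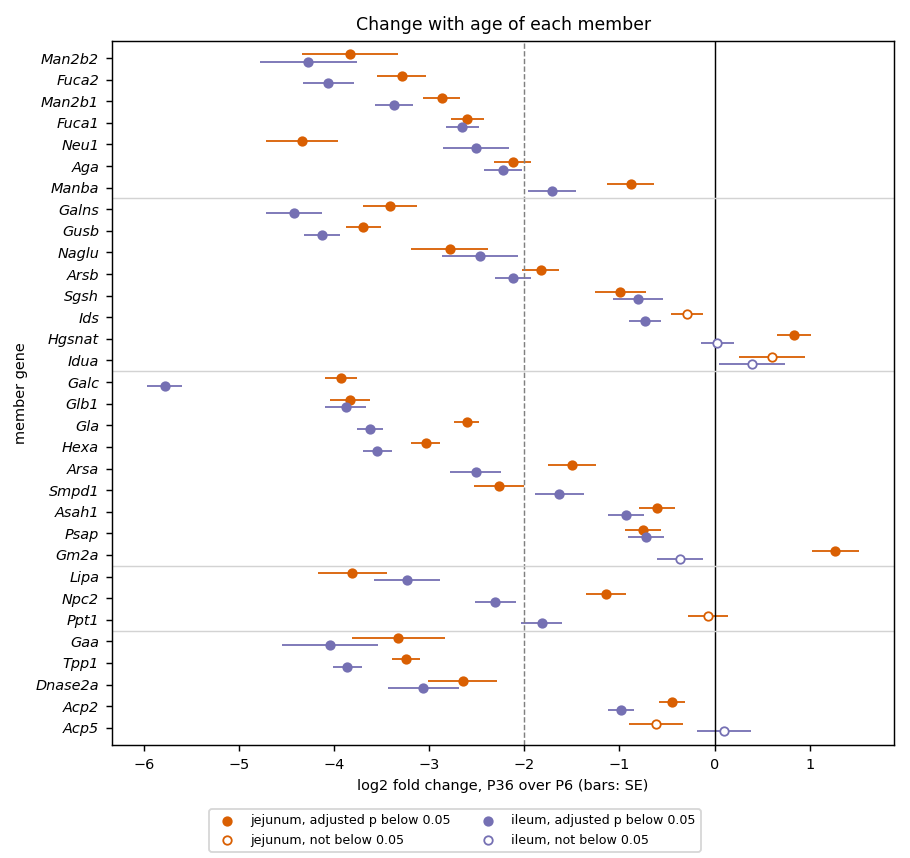
Points give the log2 fold change of P36 over P6 for each member (rows, grouped as in the heat map) in the jejunum (orange) and the ileum (violet), bars are SE, and open points did not pass the adjusted p of 0.05; the dashed line marks -2. Galc reaches -5.78 in the ileum, and Gm2a and Hgsnat are the only filled points right of 0.

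Enzymes that act on glycoprotein sugars fell together. All 7 members of this group passed the test in both regions, with a median log2 fold change of -2.87 in the jejunum and -2.65 in the ileum. Neu1, the lysosomal sialidase that removes terminal sialic acid, stood at 1106, 1129, 996 and 1017 CPM in the jejunum at P6 and at 53.7, 43.0, 59.0 and 54.1 CPM there at P36. In the ileum it stood at 1272, 1425, 1519 and 413 CPM at P6 and at 307, 178, 115 and 216 CPM at P36. The ages did not overlap in either region, but the P36 ileum kept more Neu1 than the P36 jejunum in every mouse. Between the ages its log2 fold change was -4.34 ± 0.38 (SE) in the jejunum, adjusted p = 9.87e-08, the largest fall of any member there, and -2.51 ± 0.35 in the ileum, adjusted p = 1.63e-05. Man2b2, an acid alpha-mannosidase, was at 663, 632, 691 and 505 CPM in the P6 jejunum and 1164, 1014, 1419 and 112 CPM in the P6 ileum. At P36 it was at 42.5, 42.6, 44.1 and 45.6 CPM in the jejunum and 54.6, 44.1, 37.9 and 55.9 CPM in the ileum. Every P6 library was above every P36 library, with replicate 4 of the P6 ileum nearest to them. Its log2 fold change was -3.83 ± 0.50 in the jejunum and -4.27 ± 0.51 in the ileum, adjusted p = 1e-05 and 3.86e-06, and -4.64 in the ileum without that library. Man2b1, the main lysosomal alpha-mannosidase, Fuca1, Fuca2 and Aga, which cuts the bond between asparagine and the first sugar, had log2 fold changes of -3.29 to -2.12 in the jejunum and -4.06 to -2.22 in the ileum. Manba, the beta-mannosidase, changed least in this group, by -0.88 ± 0.25 and -1.71 ± 0.25.

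Enzymes of glycosaminoglycan breakdown were split. Of the 8 members, 5 fell in the jejunum and 6 in the ileum, 1 rose in the jejunum, and Idua passed in neither region. Galns, the sulfatase of keratan sulfate and chondroitin 6-sulfate, was at 345, 324, 371 and 266 CPM in the P6 jejunum and at 846, 722, 975 and 294 CPM in the P6 ileum. At P36 the values were 30.6, 29.3, 31.4 and 31.1 CPM and 38.0, 32.3, 26.8 and 35.1 CPM, and no P36 library reached the lowest P6 library. The log2 fold change was -3.41 ± 0.28 in the jejunum (adjusted p = 5.63e-08) and -4.42 ± 0.30 in the ileum (adjusted p = 5.65e-09). Gusb, the beta-glucuronidase, changed by -3.69 ± 0.19 and -4.13 ± 0.19, from 546 to 858 CPM to 34.1 to 54.9 CPM in the ileum. Naglu, a glucosaminidase of heparan sulfate, and Arsb, the sulfatase of dermatan sulfate, changed by -2.78 and -1.83 in the jejunum and -2.47 and -2.12 in the ileum. Hgsnat, the membrane acetyltransferase of heparan sulfate breakdown, went the other way in the jejunum, from 14.7, 18.0, 13.9 and 20.3 CPM at P6 to 30.9, 24.4, 33.9 and 30.3 CPM at P36. These values did not overlap, and the log2 fold change was 0.84 ± 0.18, adjusted p = 0.000883. In the ileum Hgsnat was at 22.4, 27.7, 24.8 and 35.4 CPM at P6 and 34.2, 24.0, 27.2 and 26.9 CPM at P36, a log2 fold change of 0.03 ± 0.17 that did not pass (adjusted p = 0.903). Sgsh, the sulfamidase of heparan sulfate, changed by -0.99 ± 0.27 and -0.81 ± 0.26; in the ileum its adjusted p of 0.0164 rose to as much as 0.0585 when P6 ileum replicate 1 or 3 or P36 ileum replicate 1 was left out. Ids, the iduronate sulfatase that starts the breakdown of heparan and dermatan sulfate, was at 16.8, 19.99, 17.4 and 18.9 CPM in the jejunum at P6 and 14.4, 12.1, 17.8 and 15.3 CPM there at P36. In the ileum it was at 29.5, 36.6, 29.4 and 48.7 CPM at P6 and at 21.4, 23.5, 20.5 and 21.5 CPM at P36. Only the ileal ages were apart, and Ids changed there by -0.73 ± 0.17 (adjusted p = 0.00145), while -0.29 ± 0.17 in the jejunum did not pass (adjusted p = 0.156); the region-by-age test of this difference did not pass either (adjusted p = 0.281). Idua, the iduronidase, overlapped between the ages in both regions, with 4.94 to 12.1 CPM at P6 and 9.65 to 16.2 CPM at P36 in the jejunum (adjusted p = 0.16).

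Enzymes and activators of sphingolipid breakdown held the largest fall of all members and 1 of the 2 that rose. Of the 9 members 8 fell in each region, all but Gm2a. Galc, the galactosylceramidase that degrades galactosylceramide, stood at 73.9, 68.3, 72.3 and 61.4 CPM in the P6 jejunum and at 338, 255, 383 and 336 CPM in the P6 ileum. At P36 it was down to 4.77, 3.57, 5.16 and 4.64 CPM in the jejunum and 5.86, 5.33, 7.27 and 5.30 CPM in the ileum. Every P6 library was far above every P36 library, and the 4 P6 ileum libraries lay above all others. From P6 to P36 its log2 fold change was -3.93 ± 0.17 in the jejunum (adjusted p = 5.93e-11) and -5.78 ± 0.18 in the ileum (adjusted p = 4.4e-12), the largest change of any member in any comparison. Gla, the alpha-galactosidase A of globosides, was at 81.5, 79.6, 80.7 and 80.5 CPM in the P6 jejunum and 199, 181, 187 and 231 CPM in the P6 ileum. At P36 it was at 11.5, 13.3, 12.7 and 15.5 CPM in the jejunum and 14.5, 15.0, 18.9 and 16.5 CPM in the ileum. The P6 jejunum lay between the P6 ileum and the P36 libraries without overlap, with log2 fold changes of -2.61 ± 0.13 and -3.62 ± 0.13 with age (adjusted p = 1.95e-10 and 1.71e-11). Glb1, the beta-galactosidase of GM1 ganglioside, changed by -3.83 ± 0.21 and -3.88 ± 0.21, and Hexa by -3.04 ± 0.15 and -3.54 ± 0.15; Glb1 shares exonic positions on the same strand with Tmppe, so reads of this overlap are uncertain. Arsa, the sulfatase of sulfatide, and Smpd1, the acid sphingomyelinase, changed by -1.50 and -2.27 in the jejunum and -2.51 and -1.63 in the ileum. Asah1, the acid ceramidase, and Psap moved least among those that fell, by -0.60 ± 0.19 and -0.75 ± 0.19 in the jejunum and -0.93 ± 0.19 and -0.72 ± 0.19 in the ileum. Gm2a, the activator that lifts GM2 ganglioside out of the membrane for beta-hexosaminidase, had 2.31, 4.55, 3.36 and 4.40 CPM in the jejunum at P6 and 6.53, 8.07, 9.83 and 10.8 CPM there at P36. In the ileum it had 12.8, 15.1, 11.9 and 10.7 CPM at P6 and 6.19, 10.8, 11.7 and 10.5 CPM at P36. The P6 jejunum lay below all libraries of the other 3 groups, and Gm2a rose with age in the jejunum by 1.27 ± 0.25 (adjusted p = 0.000488) while the -0.37 ± 0.24 of the ileum did not pass (adjusted p = 0.209). Per length, Hexa stood at 1058 ± 114 TPM and Gm2a at 1.71 ± 0.459 TPM in the P6 jejunum, near opposite ends of the members.

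The 3 members that handle other lipids each differed between the regions at P6, in both directions. Lipa, the acid lipase of cholesteryl esters and triglycerides, was at 882, 805, 772 and 684 CPM in the P6 jejunum and 257, 214, 201 and 363 CPM in the P6 ileum. At P36 it was at 68.0, 59.9, 41.8 and 54.9 CPM in the jejunum and 48.7, 23.7, 10.7 and 27.0 CPM in the ileum. It was the only member whose P6 jejunum libraries all exceeded the P6 ileum, and it changed with age by -3.81 ± 0.36 (adjusted p = 2.52e-07) and -3.23 ± 0.35 (adjusted p = 1.28e-06). Npc2, the soluble carrier that takes cholesterol from the lysosome, was at 240.2, 249, 245 and 252 CPM in the P6 jejunum and 707, 636, 748 and 301 CPM in the P6 ileum. At P36 both regions were near 108, 112, 114 and 112 CPM (jejunum) and 108, 111, 141 and 124 CPM (ileum). The ileum of P6 was above all other libraries, and Npc2 changed with age by -1.14 ± 0.21 (jejunum) and -2.30 ± 0.22 (ileum), adjusted p = 0.000256 and 2.43e-07. Ppt1, the thioesterase that removes palmitate from proteins, was at 96.2, 102, 97.1 and 90.8 CPM in the jejunum at P6 and 102, 95.1, 81.4 and 89.3 CPM there at P36. In the ileum it was at 164, 156, 162 and 285 CPM at P6 and 78.1, 42.1, 45.3 and 51.9 CPM at P36. Its ages overlapped in the jejunum (-0.07 ± 0.21, adjusted p = 0.805) and were apart in the ileum (-1.82 ± 0.21, adjusted p = 3.12e-06).

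Among the hydrolases of glycogen, peptides, DNA and phosphate esters, 4 of 5 fell in each region. Gaa changed by -3.33 ± 0.49 (jejunum) and -4.04 ± 0.51 (ileum), or -4.41 without replicate 4 of the P6 ileum. Tpp1, a tripeptidyl peptidase, changed by -3.24 ± 0.15 and -3.86 ± 0.15, from 611 to 875 CPM to 45.0 to 55.9 CPM in the ileum. Dnase2a, the acid endonuclease, was the member with the fewest counts, with 0.883, 0.794, 1.89 and 2.40 CPM in the jejunum and 0.94, 0.794, 1.27 and 1.27 CPM in the ileum after 8.29, 11.9, 7.51 and 9.81 and 9.82, 11.3, 10.2 and 4.51 CPM at P6. It too was lower in every P36 library than in any P6 library (-2.65 ± 0.36 and -3.06 ± 0.37, adjusted p = 1.46e-05 and 4.45e-06). Acp2, a membrane-anchored acid phosphatase, was at 84.8, 97.6, 82.4 and 95.4 CPM in the jejunum at P6 and 69.5, 66.5, 61.4 and 67.0 CPM there at P36, and at 94.5, 107, 85.3 and 113 and 62.0, 46.4, 40.3 and 53.3 CPM in the ileum. The ages were apart in both regions but close, with log2 fold changes of -0.45 ± 0.14 and -0.99 ± 0.14 (adjusted p = 0.012 and 1.76e-05); in the jejunum the adjusted p was 0.086 without P36 jejunum replicate 3, a library without which Asah1 no longer passed either (adjusted p = 0.0752). Acp5, the tartrate-resistant acid phosphatase, was at 188, 215, 187 and 199.9 CPM in the jejunum at P6 and 122, 123, 128 and 144 CPM there at P36, and at 187, 141, 201 and 50.8 and 141, 132, 158 and 189.8 CPM in the ileum. The ileal ages overlapped, the jejunal ages did not, and neither change passed the test (-0.61 ± 0.28, adjusted p = 0.0822, and 0.10 ± 0.28, adjusted p = 0.79). Without replicate 4 of the P6 ileum, the library with 50.8 CPM, the ileal value was -0.18 (adjusted p = 0.257), and without replicates 2 and 4 it was -0.32 (adjusted p = 0.0468). Without replicate 4, which also enters the common estimate of the spread, Acp5 fell in the jejunum with adjusted p = 0.000659.

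The promoters of the members were searched for the E-box CACGTG, for TCACGTGA and for the full palindromic consensus of the CLEAR element bound by Tfeb, which are their own reverse complements, so that 1 strand covers both. RefSeq windows of GRCm38.p6 from 250 bases before to 50 bases after the transcript start were found for 28 of the 32 members, and not for Hgsnat, Galns, Aga and Asah1. CACGTG occurred in 6 of the 28 (21.4%), against 8.09% of all 27025 genes of the table and 11.5% of the 10219 genes that were also tested. TCACGTGA occurred only in Gla (3.57%, against 1.12% of all genes and 2.11% of those tested), at both of its E-boxes, and the full consensus in none of the 28. In lists of other lysosomal genes, compared below, CACGTG was in 1 of 10 further hydrolases and 5 of 11 cathepsins. It was in 7 of 22 membrane and pump genes and 4 of 10 targeting genes. TCACGTGA was in 0, 2, 5 and 3 of them in that order, and the full consensus in 0, 0, 1 and 1. The 80-base stretches that hold the motif are shown for the 6 members with CACGTG, which is in capitals as the core of the longer motifs searched. Beside them is a stretch of Galc, the member with the largest fall, whose window holds none. Positions count back from the transcript start, which follows -1.
Gla (chrX:134601174-134601253, minus strand, E-boxes at -227 and -194): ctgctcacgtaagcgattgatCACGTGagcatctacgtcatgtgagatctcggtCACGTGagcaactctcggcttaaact
Glb1 (chr9:114400993-114401072, plus strand, E-box at -48): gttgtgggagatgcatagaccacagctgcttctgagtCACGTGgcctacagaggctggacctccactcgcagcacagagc
Naglu (chr11:101069984-101070063, plus strand, E-box at -73): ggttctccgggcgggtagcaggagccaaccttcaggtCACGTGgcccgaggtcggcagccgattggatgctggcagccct
Sgsh (chr11:119355511-119355590, minus strand, E-box at -29): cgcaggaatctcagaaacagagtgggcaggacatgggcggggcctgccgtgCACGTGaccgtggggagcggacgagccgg
Arsa (chr15:89477425-89477504, minus strand, E-box at -16): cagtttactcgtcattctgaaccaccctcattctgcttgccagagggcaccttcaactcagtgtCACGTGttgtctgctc
Gaa (chr11:119267786-119267865, plus strand, E-box at -140): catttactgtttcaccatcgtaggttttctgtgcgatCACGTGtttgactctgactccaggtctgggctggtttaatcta
Galc (chr12:98259460-98259539, minus strand, no E-box in its window): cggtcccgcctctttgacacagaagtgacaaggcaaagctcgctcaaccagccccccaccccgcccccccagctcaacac

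The 6 genes with the motif had medians of -2.70 (jejunum) and -3.07 (ileum) for the log2 fold change of P36 over P6, with values from -3.83 to -0.99 and from -4.04 to -0.81. The 22 members without it in their windows had medians of -2.43 and -2.40. A match of these letters is a description of the window and no evidence of binding.

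Between the regions at P6 the members leaned towards the ileum. Among the 32 members 15 were higher in the ileum, 1 was higher in the jejunum and 16 did not pass the test, and all but Lipa, Acp5 and Dnase2a had a negative log2 fold change of jejunum over ileum. Among all genes tested, 14.8% were higher in the ileum and 11.1% in the jejunum. The median log2 fold change was -0.57 over the members and -0.05 over all genes. Only Galc also passed the fold minimum of 2, as did 4.3% of all genes in its direction. Without replicate 4 of the P6 ileum 22 members were higher in the ileum and 1 in the jejunum, where 16.8% and 15.8% of all genes were. Within the mice, the ileum was higher than the jejunum in 4 of 4 for 19 members, the jejunum in 4 of 4 for 1, and the mice were mixed for 12. The share of all genes with such agreement between mice was not computed. The 4 ileum libraries lay above the 4 jejunum libraries for 12 members, a pattern seen in 15.1% of all genes tested.

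Of the 9 sphingolipid members 6 were higher in the ileum, of the 8 glycosaminoglycan members 5, of the 3 that handle other lipids 2 (Npc2 and Ppt1), of the 7 glycoprotein members 1 (Man2b1) and of the 5 remaining members 1 (Tpp1). Galc had the largest difference, 328 ± 53.2 CPM (SD, n = 4) in the ileum against 69.0 ± 5.58 in the jejunum, with a log2 fold change of -2.25 ± 0.15 (SE) and an adjusted p of 7.03e-08. Gm2a followed at -1.79 ± 0.25 (adjusted p = 8.16e-05), then Gla at -1.31 ± 0.12 (adjusted p = 1.55e-06) and Npc2 at -1.28 ± 0.21 (adjusted p = 0.000311). For Galc, Gm2a, Gla and Npc2 all 4 ileum libraries were above all 4 jejunum libraries, and the difference was -2.23, -1.86, -1.23 and -1.50 without replicate 4. The other members higher in the ileum, Galns, Ppt1, Ids, Asah1, Arsb, Hexa, Gusb, Hgsnat, Man2b1, Tpp1 and Glb1, had log2 fold changes from -1.12 to -0.57. Glb1 was nearest to the threshold (adjusted p = 0.0364), and it no longer passed when P6 jejunum replicate 1 or 3 or P6 ileum replicate 2 was left out, with an adjusted p of up to 0.118. Lipa was the opposite case, with a log2 fold change of 1.604 ± 0.328 (adjusted p = 0.00192) from 786 ± 81.8 CPM in the jejunum against 258 ± 73.4 in the ileum.

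A further 7 members passed the test at P6 without replicate 4 and not with it, all of them higher in the ileum. They were Gaa (-1.32, adjusted p = 1.9e-06, against -0.95 and 0.134 with it), Man2b2 (-0.94, adjusted p = 0.000284, against -0.57 and 0.377), Arsa, Psap, Sgsh, Naglu and Smpd1. Their exons had 54.6% (Psap) to 59.5% (Naglu) GC, where the members ranged from 42.2% (Ids) upwards, and correction of each library for its GC trend, added after the data had been seen, gave Gaa -0.99 (adjusted p = 0.00449) and Man2b2 -0.60 (adjusted p = 0.0838), with 19 members higher in the ileum in all, beside 18.3% of all genes. Neu1 (-0.12 ± 0.33), Fuca1 (-0.04 ± 0.16), Fuca2 (-0.38 ± 0.24), Manba (-0.18 ± 0.25), Aga (-0.30 ± 0.19), Acp2 (-0.15 ± 0.14), Acp5 (0.44 ± 0.28), Idua (-0.08 ± 0.35) and Dnase2a (0.07 ± 0.33) did not pass with or without it.

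**Figure D4:**
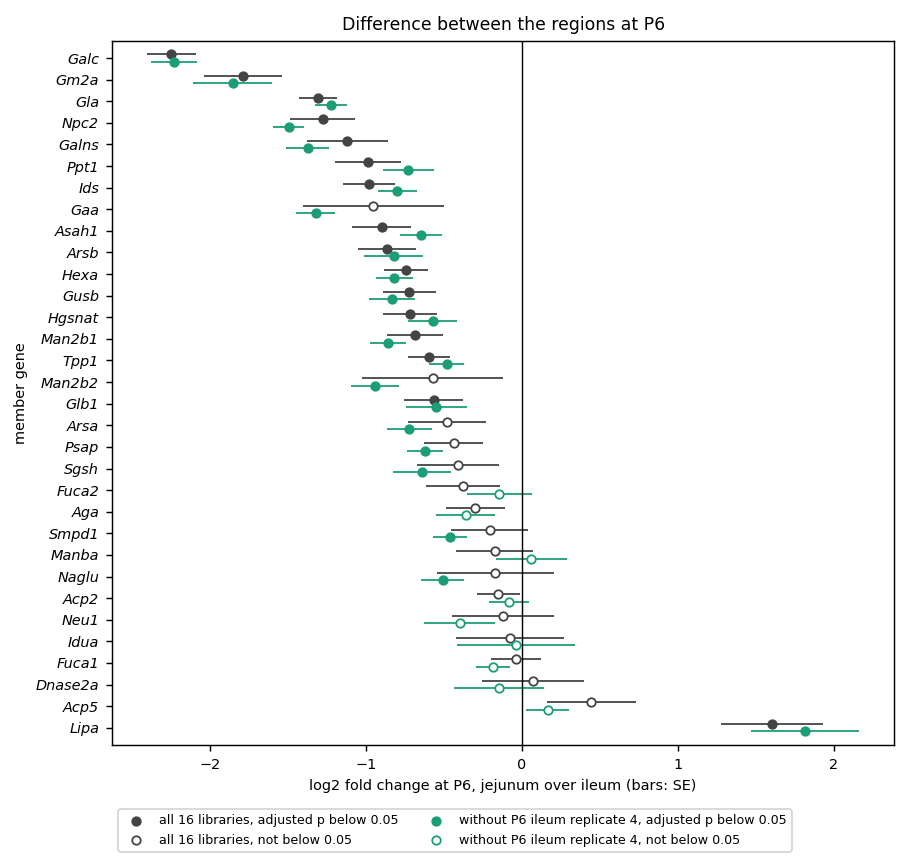
Points give the P6 log2 fold change of jejunum over ileum for each member (rows) with all 16 libraries (dark) and without replicate 4 of the P6 ileum (green); bars are SE and open points did not pass the adjusted p of 0.05. Galc (-2.25) and Lipa (1.604) mark the ends, and Gaa and Man2b2 show the widest bars with all libraries.

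After weaning fewer members passed the test between the regions. Within the P36 mice, the ileum was higher in 4 of 4 for 15 members, the jejunum in 4 of 4 for 5, and 12 were mixed. At P6 these counts were 19, 1 and 12. No share of all genes was computed for them. The 4 P36 ileum libraries lay above the 4 jejunum libraries for 8 members and below them for 3, beside 13.5% of all genes in each direction. At P36, 3 members were higher in the ileum and 2 in the jejunum, and 27 did not pass, where 7.8% of all genes were higher in the ileum and 8.3% in the jejunum. No member passed the fold minimum in either direction, where 1.55% of all genes did on the ileal side. Scaling by library totals alone, which moves the median of all genes by -0.14 here and by -0.29 at P6, gave 9 and 2, beside 11.0% and 6.67% of all genes. Neu1 was the largest, 204 ± 80.3 CPM in the ileum against 52.5 ± 6.75 in the jejunum, at -1.96 ± 0.34 (adjusted p = 0.000884), and it was higher in the ileum of 4 of 4 mice. Smpd1 (-0.84 ± 0.26, adjusted p = 0.0346) and Ids (-0.54 ± 0.17, adjusted p = 0.0361) were higher in the ileum, and Lipa (1.03 ± 0.33, adjusted p = 0.0424) and Ppt1 (0.76 ± 0.21, adjusted p = 0.021) in the jejunum, each in 4 of 4 mice. Smpd1, Ids, Ppt1 and Lipa were past the threshold in 9, 10, 11 and 5 of the 16 fits that left out 1 library, against 16 of 16 for Neu1. With the mouse as a block 6 members were higher in the ileum and 4 in the jejunum, beside 8.31% and 9.84% of all genes, and without replicate 4 of the P6 ileum, which enters only through the common spread, 10 and 5, beside 14.9% and 13.8% of all genes. The ileum libraries themselves were spread: Lipa at 48.7, 23.7, 10.7 and 27.0 CPM, Ppt1 at 78.1, 42.1, 45.3 and 51.9 CPM and Neu1 at 307, 178, 115 and 216 CPM all had their highest value in replicate 1. Gata4 was at 31.6, 5.56, 0.735 and 2.30 CPM and Fabp6 at 9114, 6647, 3727 and 7683 CPM in the same 4 libraries, highest in replicate 1 and lowest in replicate 3 for both, and the part of this spread in the regional values was not tested.

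Whether the regional difference changed with age was tested directly as the P6 log2 fold change of jejunum over ileum minus that at P36. Among the 32 members 6 passed, 5 with a negative value (a stronger lean to the ileum at P6) and 1 with a positive value, against 5.01% and 3.68% of all genes tested. In mm10, they are Galc (chr12:98202300-98259459), Gm2a (chr11:55097985-55113028), Npc2 (chr12:84754559-84773112), Gla (chrX:134588169-134601005), Ppt1 (chr4:122836227-122859175) and Neu1 (chr17:34931253-34937297), each counted over all its annotated exons. Galc had -1.85 ± 0.22 (adjusted p = 6.37e-05), with regional values of -2.25 at P6 and -0.40 at P36, the latter not past the test. Gm2a had -1.63 ± 0.35 (adjusted p = 0.00724), Npc2 -1.16 ± 0.29 (adjusted p = 0.0208) and Gla -1.01 ± 0.17 (adjusted p = 0.00153). Those members were higher in the P6 ileum and did not pass between the regions at P36. Ppt1 turned around: its difference was -0.99 at P6 and 0.76 at P36, both past the test, and the change between the ages was -1.75 ± 0.30 (adjusted p = 0.00143). Neu1 went the other way, from -0.12 at P6 to -1.96 at P36, with a change of 1.83 ± 0.47 (adjusted p = 0.0225), or 1.56 (adjusted p = 0.00504) without replicate 4 of the P6 ileum, its lowest P6 library. All 6 were past the threshold in 16 of 16 fits without 1 library. Without replicate 4 of the P6 ileum 12 members had a negative value past the test in place of 5, and 7.17% of all genes a positive and 6.83% a negative one. Lipa was higher in the jejunum at both ages, and the change of 0.57 ± 0.46 did not pass (adjusted p = 0.482).

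**Figure D5:**
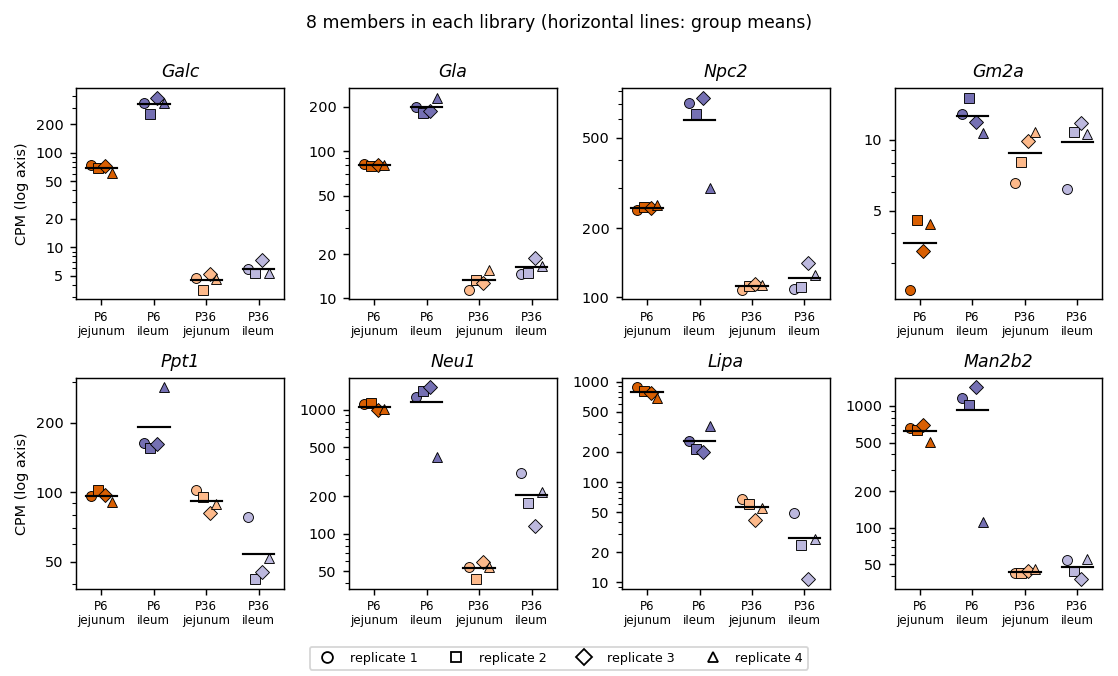
Each panel shows 1 member, with CPM on a log axis against the 4 groups; a symbol is a replicate (the same mouse in both regions of an age) and the line is the group mean. Galc, Gla and Npc2 are highest in the P6 ileum, Gm2a is lowest in the P6 jejunum, Lipa is higher in the jejunum at both ages, and the triangle of the P6 ileum (replicate 4) sits low for Neu1, Npc2 and Man2b2 and high for Ppt1.

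Other genes of the lysosome were counted for comparison, from lists compiled with the members. With age in the ileum, 14 of 16 further hydrolases, 12 of 15 cathepsins and related proteases and 26 of 26 membrane and proton pump genes fell, and 0, 1 and 0 rose. In the jejunum 13, 10 and 24 fell and 1, 4 and 0 rose. Of all genes tested, 30.1% fell and 25.5% rose in the ileum, and 26.9% fell and 24.7% rose in the jejunum. Among the cathepsins, Ctsl changed by -9.07 ± 0.40 and -8.06 ± 0.38 and Lgmn, the asparaginyl endopeptidase, by -6.52 ± 0.27 and -6.53 ± 0.27, and Slc17a5, the exporter of the sialic acid that Neu1 frees, by -5.78 ± 0.29 and -6.16 ± 0.30. Of 12 genes for enzyme targeting and regulation 7 fell in the jejunum and 10 in the ileum, and Sort1, a sorting receptor, rose in both (1.90 ± 0.15 and 1.44 ± 0.15). Igf2r, the large mannose 6-phosphate receptor, changed by -2.44 ± 0.16 and -2.78 ± 0.17, and Tfeb by -2.16 ± 0.53 and -1.84 ± 0.53. Tfeb was not among the genes of this list with the smallest adjusted p in either region. Its part in the members' changes was not tested. Between the regions at P6, 14.8% of all genes tested were higher in the ileum and 11.1% in the jejunum. Of the lists, 3 of 16 further hydrolases, 4 of 15 cathepsins, 6 of 26 pump and membrane genes and 6 of 12 targeting genes were higher in the ileum. In the jejunum 1, 2, 0 and 0 of them were higher. The jejunal ones were Arsg, a sulfatase (3.03 ± 0.28, adjusted p = 1.55e-06), Ctsl (0.98 ± 0.28, adjusted p = 0.0175) and Ctsh (0.63 ± 0.22, adjusted p = 0.0497), which with Lipa were the genes of the members and these lists that passed in that direction.

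Lysosomal enzymes are abundant in macrophages and other cells, so their markers were followed as well. A list of 9 macrophage genes summed to 418.3 to 504 CPM in the P6 jejunum, 159.6 to 360.3 in the P6 ileum and 5.03 to 27.2 over the P36 libraries. At P6 Csf1r carried nearly all of it, at 414.5 to 497.7 CPM in the jejunum and 151.8 to 333.4 CPM in the ileum. At P36 Csf1r was a smaller part, at 0.608 to 3.55 CPM, with 3.55 of 27.2 CPM in P36 jejunum replicate 3. Adgre1, C1qa, C1qb and C1qc stayed between 0 and 4.78 CPM in all libraries, each highest in P6 ileum replicate 2. Of the 6 macrophage genes with enough counts for a test, Csf1r was lower at P36 in both regions and the only 1 to fall, Lyz2 and Tyrobp were higher in the jejunum and Mrc1 in the ileum, and the others did not pass. At P6 Csf1r was higher in the jejunum, the reverse of most members. Of the neonatal enterocyte genes Cubn, Amn, Dab2 and Mamdc4, all 4 fell with age in both regions, and their sum was 6060.5 to 7308 CPM in the P6 jejunum, 5958 to 13768 in the P6 ileum, 253.7 to 430.3 in the P36 jejunum and 93.9 to 1123 in the P36 ileum. Their lowest P6 ileum sum was that of replicate 4, but the 4 genes split in this library. Cubn (3122 CPM against 1763 to 2171) and Dab2 (1605 against 1056 to 1116) were the highest of the group there. Mamdc4 (1189 CPM against 7876 to 10139) and Amn (42.3 against 257 to 360) were the lowest. The highest and lowest P36 ileum sums of the 4 genes were those of replicates 1 and 3. All 4 goblet cell genes (Muc2, Tff3, Fcgbp and Clca1) rose with age in both regions, from sums of 1626 to 3915 CPM over the P6 libraries to 7188 to 17073 CPM at P36, and at P6 2 of them were higher in the ileum. Of 4 Paneth cell genes 3 rose in both regions (Lyz1, Mmp7 and Ang4), and 1 was higher in the ileum at P6. The other gene, Itln1, did not pass with age and was split between the P6 mice. It was at 782, 7.09, 557 and 4.36 CPM in the P6 jejunum and at 620, 10.3, 435 and 8.09 CPM in the P6 ileum. The 5 tested genes of smooth muscle and fibroblasts were all higher in the P6 ileum than in the P6 jejunum, and 4 fell with age in the ileum. In the P6 ileum each gene of this list was highest in replicate 2. Col3a1 was at 105 CPM there against 9.92 to 19.8 CPM in the rest of the group, and Col1a2 at 62.8 against 2.49 to 9.46 CPM. The endothelial genes Pecam1, Cdh5 and Kdr were also highest in this library, at 12.5, 9.82 and 9.65 CPM. In the rest of the group they were at 0.108 to 2.84 CPM. The part of these cell types in the members' changes was not tested.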

How the data were processed

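RNA of the released epithelium was sequenced as stranded mRNA libraries. The authors trimmed reads (Trimmomatic 0.38), aligned them with STAR (version 2.5.3 per the labels) to mm10 and counted them per gene with featureCounts (Subread 1.6.3) on the reverse strand, and the deposited values are raw read counts for 24421 genes. Libraries of a group differed beyond sampling noise (chi-square per gene 14.0 or more). Genes past edgeR's expression filter (13429) were fitted with edgeR 4.0.16 (R 4.3.3), TMM scaling and quasi-likelihood tests over all 16 libraries as 4 group means, with Benjamini-Hochberg adjustment over all genes tested. The main fit has no block, as the study's methods name none. TPM was computed from counts and exon lengths without TMM factors. The script was tested on simulated data.

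Both regions of an age came from the same mice per the labels. Deviations from the group means correlated between regions of a mouse with r of 0.157 to 0.391 at P6 and 0.240 to 0.347 at P36. For different mice r was -0.284 to 0.120 at P6 and -0.367 to 0.232 at P36. Centering on the group means ties the mean r of different mice to that of the same mouse, so the contrast of means adds nothing. Alternatives were DESeq2 1.42.0, other scalings and filters, sex, a robust prior, the 8 libraries compared alone, the mouse as a block (fixed, or random with limma 3.58.1) and leaving out each library. GC correction (loess, span 0.3) and the fit without P6 ileum replicates 2 and 4 were chosen after seeing the data.

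The members and lists were chosen with earlier results of these data known. Values per library are given for members with the 3 largest and 3 smallest age changes per region, up to 4 P6 regional differences per direction and all that passed the region-by-age test. Protein sequences were not used here, and some genes of the other lysosomal lists are not reported here. Acp2, Arsa, Idua, Ppt1 and Sgsh overlap genes of the opposite strand, which stranded counting separates. For members with few counts, such as Dnase2a, counting error is part of the spread between mice.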

Additional observations from a re-analysis of the deposited data

Results flagged for a closer look

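In 5 of 128 sets of 4 libraries, 1 library lay far from the other 3 by Dixon's criterion, where chance gives about 1 in 20. Of these, 3 were P6 ileum replicate 4: Fuca2 at 3422 CPM against 1974 to 2106, Asah1 at 303 CPM against 166 to 178, and Ppt1 at 285 CPM against 156 to 164. The others were Hexa in P6 jejunum replicate 4, at 878 CPM against 1014 to 1035, and Psap in P36 jejunum replicate 1, at 362 CPM against 438 to 443.

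The regional difference changed with age, by the region-by-age test (edgeR, adjusted over all genes), for Galc (-1.85), Ppt1 (-1.75), Gm2a (-1.63), Npc2 (-1.16) and Gla (-1.01) in one direction and Neu1 (1.83) in the other, on the log2 scale.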

How the results depend on the processing

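The counts of members that fell with age were between 24 and 28 in the jejunum and 27 and 28 in the ileum when 1 library was left out (with the fold minimum, 17 to 18 and 20), and 2 and 0 rose. At P6, 14 to 22 members were higher in the ileum (22 without P6 ileum replicate 4) and 1 in the jejunum. With library totals 2 members passed the P6 fold minimum on the ileal side and 1 the P36 one, which was 0 to 1 when 1 library was left out. At P36 the counts depended on the setting. Against 3 higher in the ileum, DESeq2 gave 6, median-of-ratios scaling 5, library totals 9, the 8 libraries alone 7, GC correction 10 and the fit without P6 ileum replicates 2 and 4 gave 11, where 10.1%, 7.97%, 11.0%, 11.5%, 12.5% and 14.8% of all genes were higher in the ileum against 7.8% as reported; without 1 library it was 1 to 10, with 10 without P6 ileum replicate 4 and 1 without P36 jejunum replicate 1, 2 or 4 or P36 ileum replicate 3 or 4. Against 2 higher in the jejunum, GC correction gave 5, the fit without P6 ileum replicates 2 and 4 gave 5, and leaving out 1 library 0 to 5, with 5 without P6 ileum replicate 4, 4 without P36 ileum replicate 1, 0 without P36 jejunum replicate 1 or 2 or P36 ileum replicate 2, 3 or 4, and 1 without any P6 jejunum replicate, P6 ileum replicate 1 or P36 jejunum replicate 4. Of all genes, 8.3% were higher in the jejunum as reported, 12.4% with GC correction and 14.2% without P6 ileum replicates 2 and 4. The shares were 13.8% without P6 ileum replicate 4 and 10.8% without P36 ileum replicate 1. They were 5.51% to 6.42% in the fits that gave 0 and 6.35% to 7.78% in those that gave 1. With the mouse as a replicate block, P36 gave 6 ileal and 4 jejunal members (fixed term), 5 and 4 (random term) and 10 and 5 (block with GC correction), beside 8.31% and 9.84%, 9.67% and 11.4%, and 15.4% and 16.0% of all genes. The region-by-age count of negative members was 9 with the random term and 12 with the block and GC correction, beside 6.29% and 10.0% of all genes. This count, 5 as reported, was 8 with DESeq2, 11 with library totals, 10 with GC correction, 12 without P6 ileum replicates 2 and 4, and 5 to 12 without 1 library (12 without P6 ileum replicate 4, 9 without P36 ileum replicate 1). Of all genes, 5.01% had a negative value past the test as reported. The share was 7.1% with DESeq2, 7.73% with library totals, 7.47% with GC correction and 6.11% without P6 ileum replicates 2 and 4. It was 6.83% without P6 ileum replicate 4 and 6.34% without P36 ileum replicate 1. The summed level of the P6 ileum was 1.36 times that of the P6 jejunum in CPM against 1.82 in TPM, and 6.56 against 8.51 times that of the P36 ileum. Acp5 in the ileum turned from 0.10 to -0.32 without P6 ileum replicates 2 and 4 (adjusted p = 0.0468). The cause of these shifts was not tested.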

Other observations

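Mouse identifiers in the labels have 2 forms at P6, one for mice 1 and 3 and one for mice 2 and 4, whose meaning the labels do not give. For 11 of the 32 members (34.4%) these pairs of mice were apart in the same direction in both regions, as were 17.6% of all genes tested. Mice 1 and 3 were above the others for Galc, Man2b2, Sgsh, Galns and Aga and below them for Glb1, Manba, Hgsnat, Ids, Idua and Acp2. Only Manba and Idua were apart by more than 0.5 on the log2 scale in both regions (6.25% of members against 5.62% of all genes). Outside the members, the Paneth cell gene Itln1 was far apart between these pairs. In the P6 jejunum it was at 782 and 557 CPM in mice 1 and 3 and at 7.09 and 4.36 CPM in mice 2 and 4. The P6 ileum had 620 and 435 CPM against 10.3 and 8.09 CPM. The difference was not tested.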
